A study of Homo sapiens with 6 samples.

Results

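The genes described here are 68 that build or fasten the extracellular matrix. They are every collagen chain gene listed in the deposited tables (44 genes) and 24 genes of fibronectin, other matrix glycoproteins and proteoglycans, the enzymes that modify and crosslink collagen, and 2 syndecans. They were chosen by symbol out of 26484 listed genes. The rule uses no measured value, but it was set with earlier results of these data known. The RNA came from MCF10CA1a, a malignant human breast epithelial line of the MCF10A lineage, and was taken on day 5 from hydrogel dishes of 500 Pa (soft) or 8000 Pa (stiff). Both kinds of dish had a Matrigel coat (0.14 mg/ml, reduced in growth factors) and the same medium with horse serum, changed on day 4, and the labels call the RNA cytosolic. Each stiffness had 3 biological replicates numbered 1 to 3, and only this 1 line was used. No source says that same-numbered cultures shared a day, so p-values measure no more than the spread among these libraries. In the edgeR fit with the replicate number they rest on a spread shared across genes, and not on each gene's own.

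Collagens are trimers of 3 chains. Some types, such as I, IV, V and VI, combine different chains in their usual form, while many others are built from a single kind of chain. Fibrillar collagens such as type I form the tensile fibres of connective tissue and come mainly from fibroblasts, while type IV forms the mesh of basement membranes under epithelia. Prolyl and lysyl hydroxylases modify the chains in the endoplasmic reticulum, and lysyl oxidases crosslink them outside the cell. Fibronectin is laid down as fibrils that cells assemble through integrins, and stiff tumour tissue is known for dense, crosslinked collagen and fibronectin. Matrigel is itself a basement membrane extract, so these cells met laminin and type IV collagen that they had not made.

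Library totals ran from 8305601 to 18779742 counts. In a single library 3 counts equal 0.168 to 0.429 CPM. The floor used below for a gene at 0 is 3 counts over the 6 libraries together. CPM are counts scaled to a common library size with TMM factors, which correct for the makeup of a library, and per-length levels divide CPM by the longest coding transcript in kilobases. The cells read as epithelial, with 6 of 6 epithelial markers tested and KRT8 at 11249 ± 3609 CPM (SD, n = 3) on soft gels and 9061 ± 3224 CPM (n = 3) on stiff gels. Of 7 fibroblast markers 0 had enough counts to test, and LUM, POSTN and THY1 stood at 0 in every library. The 7 together summed to between 0 and 1.29 CPM in the soft libraries and between 0.0997 and 1.68 CPM in the stiff ones.

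Most collagen genes were not detected or barely so. Of the 44 collagen chains, 19 had 0 counts in all 6 libraries (43.2%, against 36.2% of all listed genes), 13 had counts too low to test and 12 were tested (27.3%, against 43.5% of all listed genes). Of the 24 other members 0 were at 0 in all libraries and 20 were tested (83.3%). Detection differed between these groups, with 32 of 68 members tested in all. The collagens are every chain listed while the others were picked by name, so these shares do not compare like sets.

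**Figure D1:**
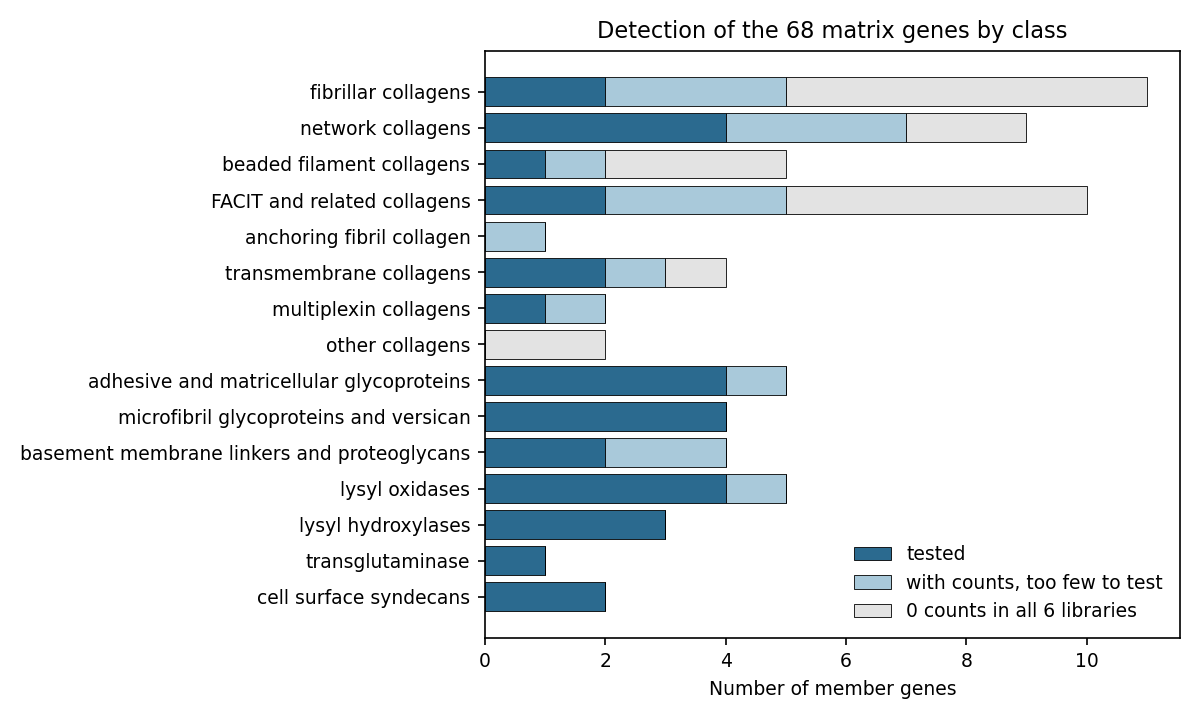
Number of member genes (horizontal axis) in each structural class (rows), split into tested genes, genes with counts too few to test, and genes with 0 counts in all 6 libraries. The 19 undetected genes are all collagen chains, and all 3 lysyl hydroxylases and both syndecans were tested.

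The 19 collagens at 0 were COL1A2, COL3A1, COL5A1, COL5A3, COL11A1 and COL11A2 among the fibrillar chains, COL8A2 and COL10A1 among the network-forming chains, COL6A2, COL6A5 and COL6A6 of type VI, and COL9A1, COL9A2, COL19A1, COL20A1 and COL21A1 of the fibril-associated group. The transmembrane chain COL25A1 and the less studied COL26A1 and COL28A1 completed them. The 13 collagens with counts too low to test were COL2A1, COL24A1, COL27A1, COL4A3, COL4A4, COL4A6, COL6A3, COL9A3, COL14A1, COL22A1, COL7A1, COL23A1 and COL15A1, and none exceeded 27 counts in any library. COL7A1, which makes the anchoring fibrils beneath stratified epithelia, had 7 counts over the 6 libraries. Outside the collagens THBS2, NID1, NID2 and LOXL4 were also too low, with 8 counts at most in any library. NID1, the nidogen that links laminin to type IV collagen, had 1 count in all.

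Several chains were counted without the partner they usually assemble with. COL1A1 had 98 counts over the 6 libraries while COL1A2, the other chain of type I collagen, had 0. Per kilobase of transcript, COL1A1 was at least 26.3-fold higher than COL1A2 taken at a floor of 3 counts over the 6 libraries. COL6A1 had 158 counts and COL6A2 had 0, which puts COL6A1 at least 43.01-fold higher per kilobase on the same floor. COL5A2 had 148 counts, against 0 for COL5A1 and 0 for COL5A3, at least 59.02-fold and 43.01-fold higher. These bounds cover only the counting error of the gene at 0, and a count of 0 here is a value of the deposited tables. How the authors' counting treated reads with several matches is not known from the sources used here.

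The basement membrane chains COL4A1 and COL4A2, which assemble together, were both tested. They lie head to head on chromosome 13 (GRCh38, GENCODE 29), with COL4A1 on the minus strand from 110148963 to 110307233 and COL4A2 on the plus strand from 110305812 to 110513209. The RefSeq start sites used here are 127 bases apart, so the promoter windows from 250 bases before to 50 bases after each start share 226 bases. FN1, the gene that the stiffness comparison below turns on, lies on chromosome 2 from 215360440 to 215436172 on the minus strand. The 3 windows are printed because they are the promoters of the called gene and of the pair of chains whose windows overlap, 5′ to 3′ on each gene's own strand (RefSeq, GRCh38.p14), for FN1 at chr2:215436019-215436318, COL4A1 at chr13:110307108-110307407 and COL4A2 at chr13:110307034-110307333. Capitals mark matches on either strand to the cAMP response element TGACGTCA, to the TATA box letters TATAA, to the GC box letters GGGCGG and to the CCAAT box.
FN1: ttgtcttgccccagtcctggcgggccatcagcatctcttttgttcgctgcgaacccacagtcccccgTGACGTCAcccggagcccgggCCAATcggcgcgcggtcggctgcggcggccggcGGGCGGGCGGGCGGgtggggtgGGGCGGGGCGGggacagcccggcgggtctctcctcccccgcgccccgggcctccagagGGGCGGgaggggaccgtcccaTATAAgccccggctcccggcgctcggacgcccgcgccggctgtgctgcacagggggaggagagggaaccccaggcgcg
COL4A1: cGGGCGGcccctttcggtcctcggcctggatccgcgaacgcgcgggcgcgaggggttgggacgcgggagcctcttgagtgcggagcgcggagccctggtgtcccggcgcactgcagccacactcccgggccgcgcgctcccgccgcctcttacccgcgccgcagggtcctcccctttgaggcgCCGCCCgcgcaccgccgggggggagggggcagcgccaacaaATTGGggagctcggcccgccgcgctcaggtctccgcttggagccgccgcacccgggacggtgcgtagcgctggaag
COL4A2: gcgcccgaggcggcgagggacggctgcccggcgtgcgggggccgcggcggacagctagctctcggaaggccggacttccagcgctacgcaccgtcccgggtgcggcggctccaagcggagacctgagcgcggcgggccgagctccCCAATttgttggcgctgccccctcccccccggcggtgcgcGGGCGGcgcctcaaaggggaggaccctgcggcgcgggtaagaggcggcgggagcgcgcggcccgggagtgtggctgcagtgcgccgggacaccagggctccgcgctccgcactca

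In the FN1 window the cAMP response element begins 183 bases before the start, the TATA box letters begin 28 bases before it, the CCAAT box begins 162 bases before it, and the GC box occurs 6 times, with some copies overlapping each other. The COL4A1 and COL4A2 windows hold 0 matches to the first pair of motifs. Their CCAAT match is 1 site on the chromosome, from 110307179 to 110307183, read from opposite strands, and they share 1 GC box in the same way. The cAMP response element occurs in 1.85% of all 35116 promoter windows in the table, the TATA box letters in 20.4%, the GC box in 45.0% and the CCAAT box in 34.6%. The letters GGAATG, the core of TEAD binding sites, were also searched on both strands and are in none of the 3 windows (0 matches), against 14.0% of all windows. Windows were found for 53 of the 68 members. A match is a string of letters in these windows and was not tied to the counts.

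Together the 68 genes took 0.241% ± 0.0445 of all counts on soft gels and 0.280% ± 0.0103 on stiff gels (n = 3 each). The groups overlapped, and 500 Pa replicate 2 at 0.2921% was above every stiff library. Summed CPM ran from 2295 to 2784 in soft and from 2261 to 3125 in stiff libraries. Of the counts of the 68 genes 69.4% came from 5 genes. They are SDC4, a heparan sulfate proteoglycan of the cell surface that works with integrins in focal adhesions, SPARC, a collagen-binding matricellular protein, THBS1, an adhesive glycoprotein that can activate latent TGF-beta, PLOD1, a lysyl hydroxylase, and TNC, a matricellular protein of remodelling tissue. All 44 collagen chains together held 3.24%.

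Per kilobase, SDC4 was highest at 229 CPM per kb over the 6 libraries, followed by SPARC at 109, PLOD1 at 99.0 and PLOD3 at 63.9 CPM per kb. Among structural matrix genes THBS1 stood at 40.4, TNC at 25.6 and FN1 at 7.12 CPM per kb. The highest collagen chain was COL12A1, a fibril-associated collagen, at 2.03 CPM per kb, next to COL4A2 at 1.83 and COL4A1 at 1.54 CPM per kb. PLOD1 and PLOD3 were thus above each collagen chain in level per kilobase, and this held in each of the 6 libraries. PLOD2 was lower at 3.94 CPM per kb over the 6 libraries, and in 8000 Pa replicate 3 it stood at 2.22 CPM per kb, below COL4A2 at 2.79. Of the lysyl oxidases LOXL2 led at 22.1 CPM per kb, followed by LOXL3 at 2.51, LOX at 1.80 and LOXL1 at 1.78 CPM per kb.

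**Figure D2:**
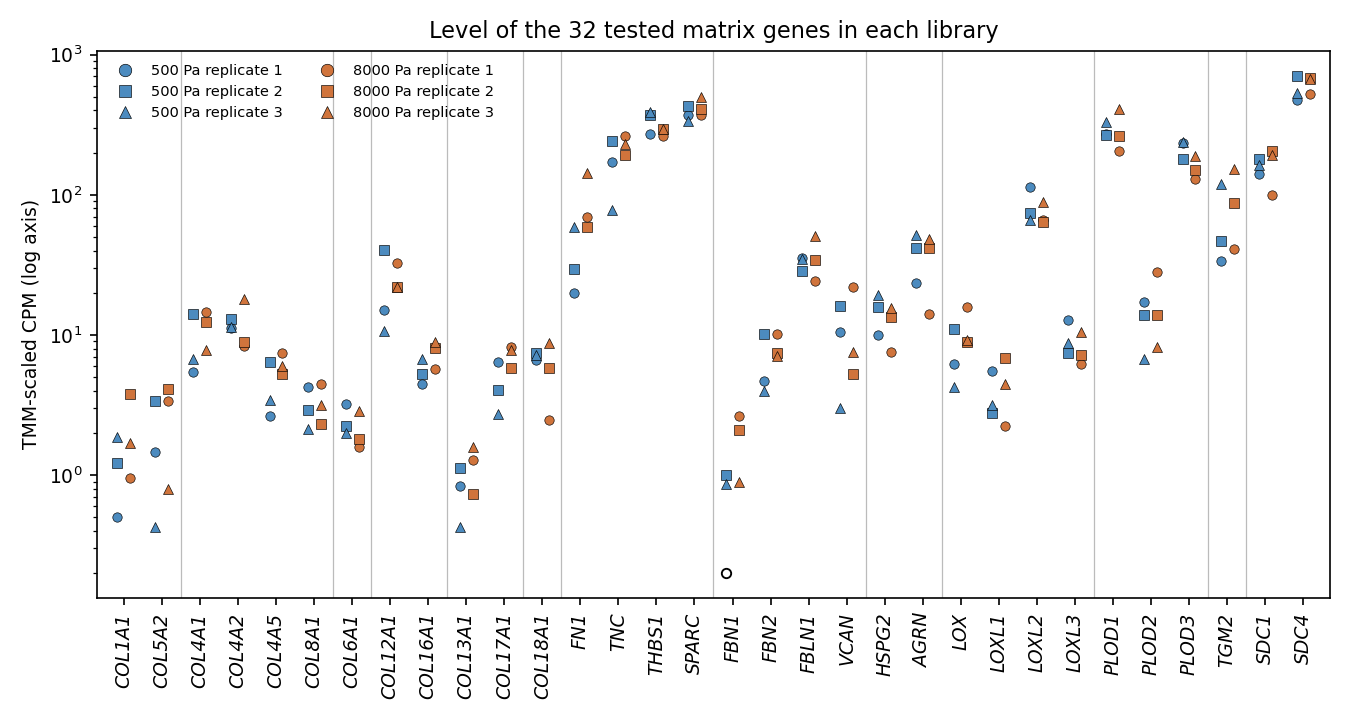
TMM-scaled CPM (log axis) of each tested member (horizontal axis, grouped by class between grey lines) in every library. Blue is 500 Pa, orange is 8000 Pa, and the symbol gives the replicate number; the open circle is FBN1 at 0 counts in 500 Pa replicate 1, drawn at the bottom because a log axis has no 0. SDC4 is highest, and the FN1 points are the ones whose colours do not overlap.

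The comparison asked which of these transcripts differ between soft and stiff gels. With stiffness alone in the model, edgeR's quasi-likelihood test called 0 of the 32 tested members at an FDR of 0.05, where 0% of all 11517 tested genes were called. At an unadjusted p under 0.05 there was 1 member, FN1, where 2.45% of all tested genes fell under it. DESeq2 called 0 members (0.0608% of all tested genes) and limma-voom called 0 members (0% of all tested genes). With the replicate number as a block, the same test called 1 of the 32 members, where 0.53% of all tested genes were called and 0.26% were called higher at 8000 Pa. That member was again FN1. DESeq2 with the block called FN1 alone among the members, where 0.365% of all tested genes were called.

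FN1 encodes fibronectin, the fibril-forming glycoprotein that integrins bind. It stood at 20.005, 29.4 and 58.7 CPM in 500 Pa replicates 1, 2 and 3 and at 69.3, 59.4 and 143 CPM in 8000 Pa replicates 1, 2 and 3. Every stiff library was above every soft one, although 500 Pa replicate 3 and 8000 Pa replicate 2 were nearly level, and replicate 3 was the highest library within each stiffness. FN1 was the 1 member of 32 whose groups did not overlap with stiff higher, where 4.02% of all tested genes did so. In the blocked fit FN1 rose 2.58-fold (log2 fold change 1.37, SE 0.24, edgeR adjusted p = 2.29e-05, higher in 3 of 3 pairs). That SE rests on a variance shared across genes, while FN1's own pairs differed by 1.77, 1.00 and 1.28 in log2 units. Without the block the log2 fold change was 1.34 (SE 0.43) with an edgeR adjusted p of 1.00. The blocked call was lost without replicate 3 (log2 fold change 1.46, edgeR adjusted p = 0.120) and held without replicate 1 or 2. Without 8000 Pa replicate 3 the unblocked log2 fold change was 0.86. Of the list of 6 endothelial markers 2 were tested, PECAM1 and CDH5. Both were called higher in the blocked fit, where 0.26% of all tested genes were called higher, and neither passed unblocked (edgeR adjusted p of 1.00 each). The list summed to between 92.7 and 149 CPM in soft and between 208 and 252 CPM in stiff libraries, and most of that sum was PECAM1, at 98.0 CPM in 500 Pa replicate 1 and 204 CPM in 8000 Pa replicate 1. CLDN5 and TEK were at 0 in every library, and VWF and KDR had 4 counts at most in any library. Only 1 line was used, and the part of any other cells in the FN1 difference was not tested. In bulk RNA a change in the share of cells that express FN1 and a change in its RNA per cell cannot be told apart.

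The other matricellular genes did not pass in either fit over all 6 libraries. TNC stood at 170, 243 and 77.7 CPM on soft gels and at 261, 192 and 231 CPM on stiff gels, so the groups overlapped and replicate 2 ran opposite to the others. Its pairs differed by 0.61, -0.34 and 1.56 in log2 units, a spread that the blocked interval, with an SE shared across genes, does not carry. Its blocked log2 fold change was 0.61 (95% interval 0.14 to 1.07, edgeR adjusted p = 0.291). It moved with the pair left out, to 1.09 without replicate 2, which passed (edgeR adjusted p = 0.0457), and to 0.19 without replicate 3 (edgeR adjusted p of 1.00). Unblocked it was 0.48, and 0.20 without 500 Pa replicate 3. SPARC overlapped between the groups, at 373, 433 and 335 CPM on soft and 373, 411 and 501 CPM on stiff gels. Its 95% interval ran from -0.29 to 0.63 in log2 units. THBS1 was at 272, 368 and 392 CPM on soft and 263, 295 and 293 CPM on stiff gels. It was lower on the stiff gel in 3 of 3 pairs, with a blocked log2 fold change of -0.26 and an interval from -0.72 to 0.19.

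**Figure D3:**
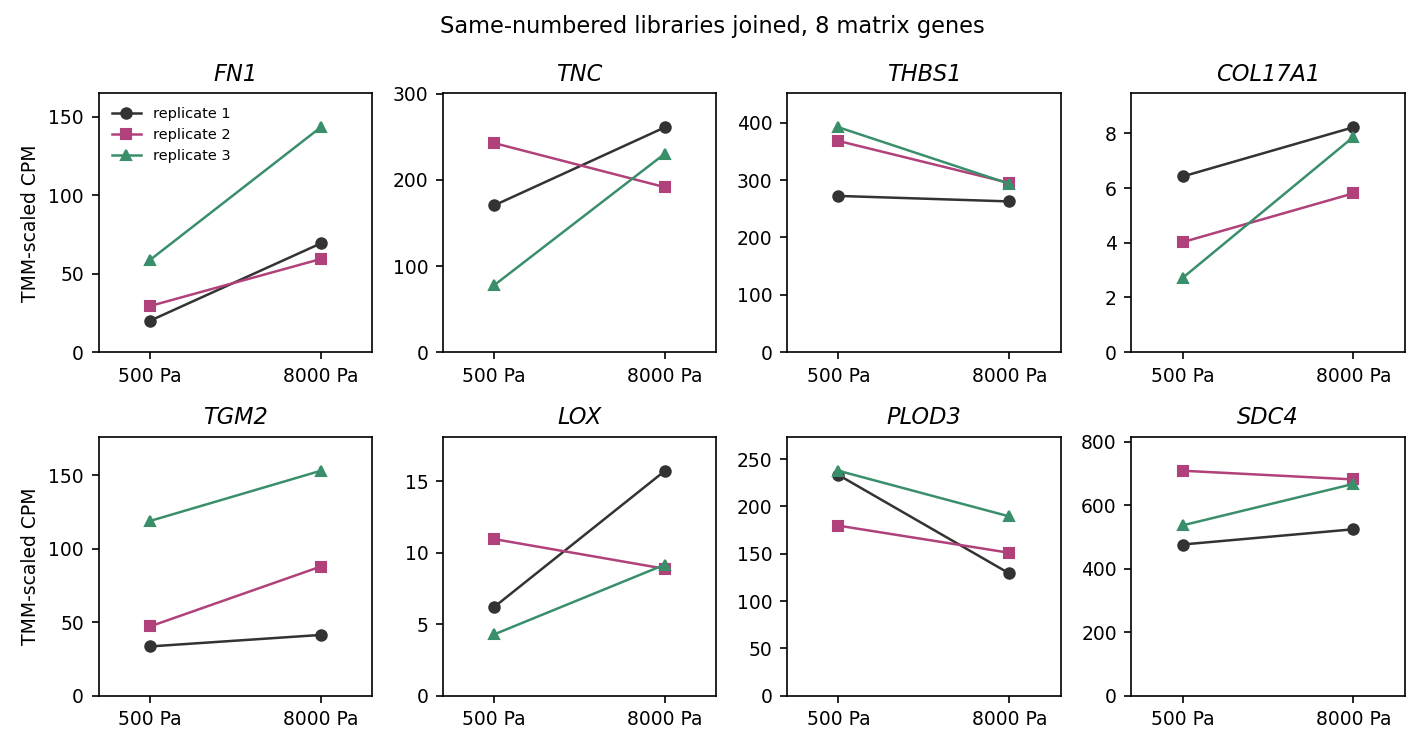
TMM-scaled CPM (vertical axes from 0) at 500 Pa and 8000 Pa for 8 members picked after their values were seen, with same-numbered libraries joined by lines. FN1 has the same slope direction in every pair and passed in the blocked fit, TGM2, COL17A1, THBS1 and PLOD3 also keep 1 direction without passing, and TNC, LOX and SDC4 have replicate 2 falling while the others climb.

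Microfibril genes were low. FBN1, which encodes fibrillin-1, the core of elastic microfibrils, had 0, 9 and 6 counts in soft libraries and 33, 20 and 9 counts in stiff ones. The groups overlapped, since 500 Pa replicate 2 at 1.01 CPM was above 8000 Pa replicate 3 at 0.90 CPM. Its blocked log2 fold change of 1.94 (SE 0.68) had an edgeR adjusted p of 0.204. The FBN1 pairs differed by 2.65, 0.79 and 0.04 in log2 units, so pair 3 was nearly level. FBLN1, a fibulin of basement membranes and elastic fibres, was more abundant at 32.9 ± 3.86 CPM on soft and 36.4 ± 13.5 CPM on stiff gels (n = 3 each). FBN2 (6.29 ± 3.38 against 8.21 ± 1.69 CPM, soft then stiff) and the large proteoglycan VCAN (9.89 ± 6.62 against 11.6 ± 8.997 CPM) also did not pass. From its lowest to its highest library VCAN varied 7.29-fold and FN1 7.17-fold, and the VCAN groups overlapped while those of FN1 did not.

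The basement membrane proteoglycans, which carry heparan sulfate, showed no call. AGRN (agrin) was at 23.4, 41.6 and 51.3 CPM on soft and 14.1, 41.9 and 48.2 CPM on stiff gels. In both groups replicate 1 was lowest and replicate 3 highest. HSPG2 (perlecan) was at 15.02 ± 4.69 CPM on soft and 12.2 ± 4.22 CPM on stiff gels, and it was lower on the stiff gel in 3 of 3 pairs without passing (edgeR blocked adjusted p = 0.805).

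Among the 12 tested collagens 0 passed in either fit, and 9 of the 12 had a log2 fold change above 0 in both. Their median log2 fold change was 0.44 unblocked and 0.47 blocked, where the medians of all tested genes were 0.01 and -0.01. The pairs differed, with collagen medians of 0.37, -0.25 and 0.48 in pairs 1, 2 and 3, and 4 of the 12 above 0 in pair 2. The chain with the smallest blocked p was COL17A1, the hemidesmosome collagen that spans the plasma membrane of basal epithelial cells. It stood at 6.43, 4.02 and 2.72 CPM on soft and 8.23, 5.81 and 7.88 CPM on stiff gels. Each stiff library exceeded its same-numbered soft library, but the groups overlapped (blocked log2 fold change 0.76, SE 0.38, edgeR adjusted p = 0.459). COL12A1 was at 15.1, 40.5 and 10.7 CPM on soft and 32.5, 22.1 and 21.9 CPM on stiff gels, and the highest and the lowest library were both soft. COL4A5, a type IV chain encoded on the X chromosome, was at 4.14 ± 1.97 CPM on soft and 6.23 ± 1.09 CPM on stiff gels. COL1A1 remained near the limit of counting at 1.197 ± 0.678 CPM on soft and 2.15 ± 1.48 CPM on stiff gels (n = 3 each).

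The remaining tested chains were low, and their groups overlapped. COL5A2, a fibrillar chain, was at 1.45, 3.35 and 0.43 CPM on soft and 3.35, 4.12 and 0.80 CPM on stiff gels, higher on the stiff gel in 3 of 3 pairs. COL16A1, a fibril-associated chain, was at 4.47, 5.25 and 6.72 CPM on soft and 5.67, 8.13 and 8.87 CPM on stiff gels, also higher in 3 of 3 pairs. Neither passed, with edgeR blocked adjusted p = 0.677 for COL5A2 and 0.743 for COL16A1. COL8A1, a short network-forming chain, stood at 3.10 ± 1.06 CPM on soft and 3.33 ± 1.08 CPM on stiff gels. COL13A1, a transmembrane chain, stood at 0.795 ± 0.347 and 1.204 ± 0.433 CPM, and COL6A1, a chain of the beaded filaments, at 2.49 ± 0.659 and 2.09 ± 0.697 CPM (n = 3 each). COL18A1, the basement membrane collagen whose end fragment is endostatin, was at 6.59, 7.38 and 7.15 CPM on soft and 2.48, 5.81 and 8.77 CPM on stiff gels. Its stiff libraries included both the lowest and the highest value, and 16.4% of its exon bases also lie in SLC19A1 on the other strand, whose reads cannot be told apart here.

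COL4A1 and COL4A2, whose promoter windows overlap, had different patterns across the libraries. COL4A1 stood at 5.48, 14.1 and 6.72 CPM on soft and 14.5, 12.4 and 7.78 CPM on stiff gels. COL4A2 stood at 11.2, 13.0 and 11.4 CPM on soft and 8.39, 8.98 and 18.1 CPM on stiff gels. The ratio of COL4A1 to COL4A2 CPM was highest in 8000 Pa replicate 1 at 1.73 and lowest in 8000 Pa replicate 3 at 0.429, so it varied most within the stiff group. Those 2 libraries also stand at the ends of a shift with transcript GC content over all tested genes. There the Spearman rho between a gene's deviation from its mean and its GC content was -0.783 in 8000 Pa replicate 1 and 0.697 in 8000 Pa replicate 3. COL4A1 has 55.4% GC and COL4A2 62.0%. The part of GC content in the ratio was not tested.

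COL4A4, a type IV chain of specialised basement membranes, is named after its values were seen, since it fell under the count filter. It had 1, 1 and 0 counts on soft and 13, 3 and 15 counts on stiff gels. The ratio of the pooled levels was 16.4, with an exact 95% counting interval from 4.17 to 141, which leaves out the spread between cultures. It did not pass with no filter on counts (edgeR adjusted p = 0.648). LOXL4, also named after its values were seen, had 6, 1 and 4 counts on soft and 0, 1 and 0 counts on stiff gels. Its ratio was 0.0961, with an interval from 0.00223 to 0.661 that again leaves out the spread between cultures. It did not pass with no filter (edgeR adjusted p = 0.949). Because both genes were picked for their split, that their intervals leave out 1 is no support.

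The crosslinking enzymes did not pass in either fit. LOX, the founding lysyl oxidase, was at 6.20, 10.96 and 4.29 CPM on soft and 15.7, 8.87 and 9.17 CPM on stiff gels. Replicates 1 and 3 were higher on the stiff gel and replicate 2 was lower (blocked log2 fold change 0.71, SE 0.34, edgeR adjusted p = 0.425). LOXL2, the most abundant family member, was at 113, 73.8 and 65.9 CPM on soft and 65.9, 63.9 and 88.6 CPM on stiff gels. The soft library of replicate 1 stood above all others, and the blocked 95% interval of its log2 fold change was -0.65 to 0.27. LOXL1 and LOXL3 were below 13 CPM in every library. TGM2, the transglutaminase that joins fibronectin and other proteins through glutamine and lysine, was at 33.5, 47.1 and 119 CPM on soft and 41.3, 87.8 and 153 CPM on stiff gels. It was higher on the stiff gel in 3 of 3 pairs, and the groups overlapped, with replicate 3 highest and replicate 1 lowest on both gels (blocked log2 fold change 0.52, SE 0.23, edgeR adjusted p = 0.383). Its unblocked log2 fold change was 0.50, and -0.05 without 8000 Pa replicate 3.

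The 3 lysyl hydroxylases differed among themselves. PLOD3, which also adds sugars to collagen hydroxylysine, was at 233, 180 and 238 CPM on soft and 129, 151 and 189 CPM on stiff gels. It was lower on the stiff gel in 3 of 3 pairs, and 8000 Pa replicate 3 overlapped 500 Pa replicate 2 (blocked log2 fold change -0.48, SE 0.23, edgeR adjusted p = 0.429). PLOD1 had near-equal means of 291 ± 36.5 CPM on soft and 291 ± 103 CPM on stiff gels, although its stiff libraries ran from 207 to 406 CPM. PLOD2, a hydroxylase of collagen telopeptides, was at 12.7 ± 5.42 CPM on soft and 16.8 ± 10.3 CPM on stiff gels. The syndecans also did not pass. SDC4 was at 476, 709 and 536 CPM on soft and 524, 681 and 667 CPM on stiff gels, and SDC1 was at 160 ± 19.7 and 167 ± 58.1 CPM.

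**Figure D4:**
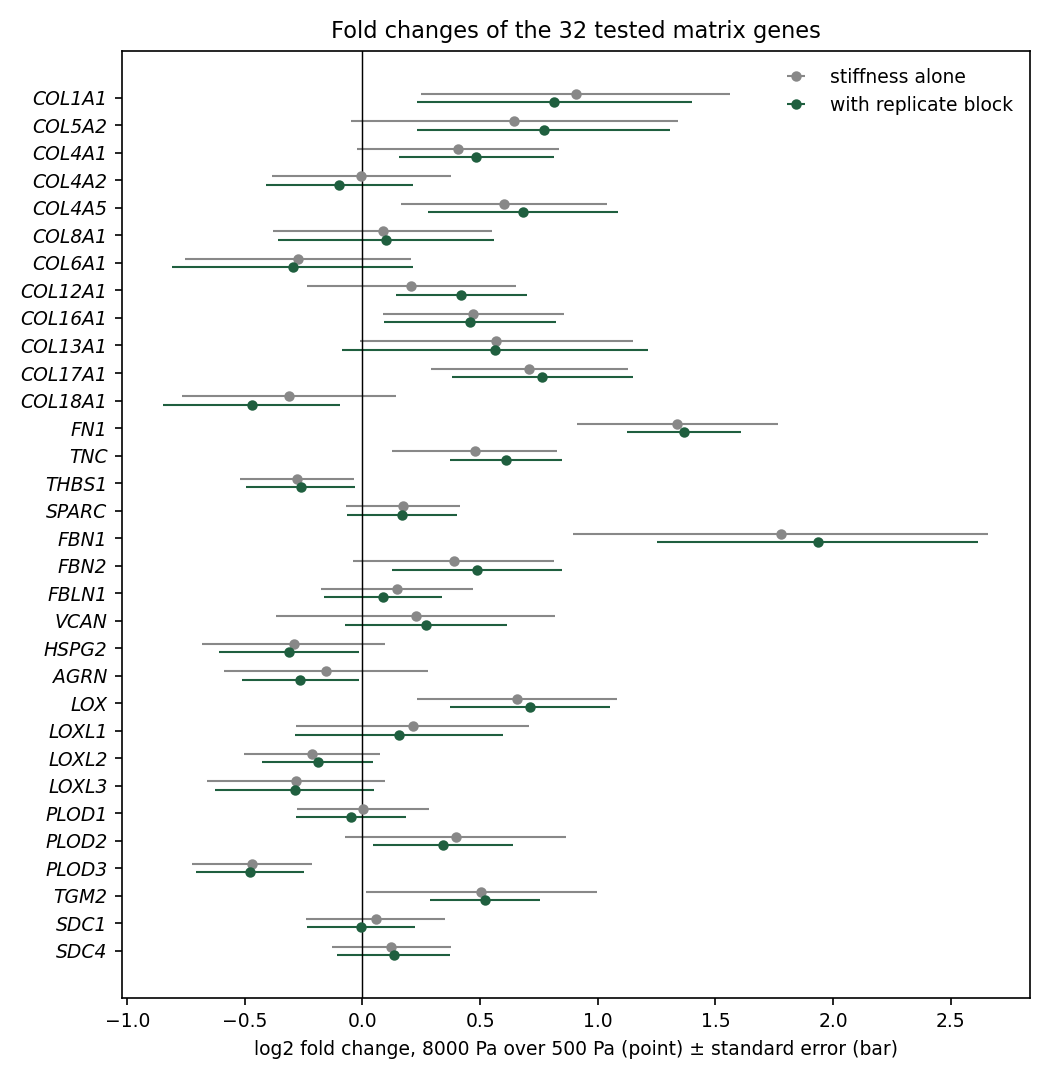
Log2 fold change of 8000 Pa over 500 Pa (horizontal axis, point) with its standard error (bar) for each tested member (rows), from the edgeR fit with stiffness alone (grey) and with the replicate block (green). FN1 stands at 1.34 and 1.37 with the shorter bar in the blocked fit, and FBN1 is farther right with longer bars.

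As a set the 32 tested members had 23 log2 fold changes above 0 in the unblocked fit (71.9%, against 51.2% of all tested genes) and 21 in the blocked fit (65.6%, against 49.4%). The median was 0.21 unblocked and 0.22 blocked. Members higher on the stiff gel in 3 of 3 pairs numbered 6 (18.8%, against 14.6% of all tested genes), namely COL5A2, COL16A1, COL17A1, FN1, FBN1 and TGM2. Those lower in 3 of 3 pairs numbered 3 (9.38%, against 15.2%), namely THBS1, HSPG2 and PLOD3. At an unadjusted p under 0.05 in the blocked fit there were 7 (21.9%, against 10.6%), of which FN1 alone passed adjustment. The pairs differed from each other, since 18 of the 32 members were above 0 in pair 1, 11 in pair 2 and 27 in pair 3, with medians of 0.22, -0.13 and 0.43.

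The members' differences also ran with transcript GC content in pair 1. Across the 32 members the Spearman rho between log2 difference and GC content was -0.675 in pair 1, 0.202 in pair 2 and -0.324 in pair 3. Across all 11326 tested genes with a GC value it was -0.622, 0.0605 and 0.0153. These are correlations across genes of the same libraries. The 16 members at or below the median GC had a median pair 1 difference of 1.01, and the 16 above it had -0.50. In pair 2 the order was the other way, at -0.22 and -0.04, and in pair 3 the same groups had 0.53 and 0.33. FN1, at 50.2% GC, kept its call in the blocked fit with an offset for GC content (log2 fold change 1.28, edgeR adjusted p = 2.13e-04), where 0.729% of all tested genes were called. With the offset and no block FN1 was not called (log2 fold change 1.24, edgeR adjusted p = 0.765). AGRN, at 67.5% GC, moved from -0.15 to 0.12 in unblocked log2 fold change with the offset. With the offset and the block, PLOD3 moved from -0.48 to -0.21, SPARC from 0.17 to 0.01 and SDC4 from 0.13 to 0.002. THBS1 moved away from 0, from -0.26 to -0.43, and TGM2 from 0.52 to 0.60, and neither passed (edgeR adjusted p = 0.205 and 0.0890). The blocked median of the 32 members was 0.22 without the offset and 0.23 with it. Without the offset it was 0.49 in the 16 members at or below the median GC and -0.07 in the 16 above. Unblocked, the same groups had medians of 0.40 and -0.002. The part of GC content in the members' median was not tested.

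**Figure D5:**
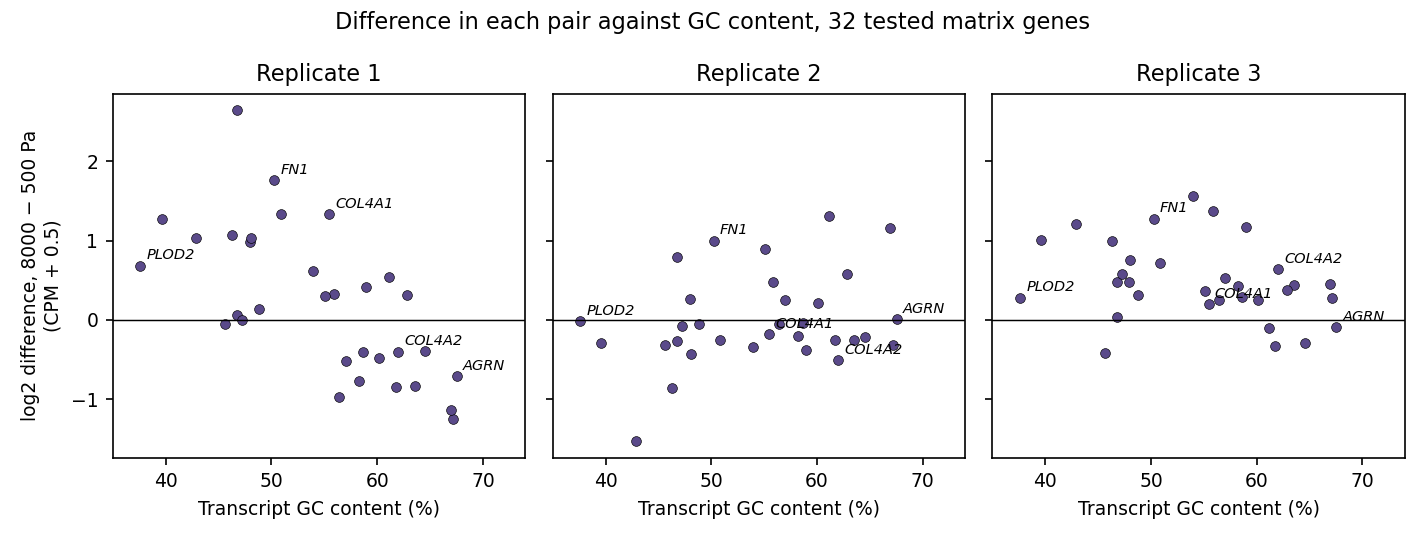
Log2 difference of 8000 Pa minus 500 Pa (vertical axis, from CPM + 0.5) against transcript GC content in percent (horizontal axis) for the 32 tested members, 1 panel per replicate pair. In replicate 1 low-GC genes lie mostly above 0 and high-GC genes mostly below, while FN1 lies above 0 in each panel.

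Genes that fold collagen or bind the matrix gave no call. Of 22 genes for collagen folding, processing and secretion, 15 were tested and 0 passed in either edgeR fit, with 0 at an unadjusted p under 0.05 unblocked and 1 blocked. DESeq2 and limma-voom also called 0. Their median log2 fold change was 0.07 unblocked and 0.03 blocked. P4HB, the disulfide isomerase subunit of prolyl 4-hydroxylase, stood at 2392 ± 264 CPM on soft and 2514 ± 678 CPM on stiff gels, and PPIB, a prolyl isomerase of collagen folding, at 248 ± 15.7 and 248.8 ± 37.8 CPM. Of 18 receptors for collagen and fibronectin 11 were tested and 0 passed in either edgeR fit, with 0 at an unadjusted p under 0.05 in each and 0 called by DESeq2 or limma-voom. Their median was 0.21 unblocked and 0.18 blocked. CD44, which binds hyaluronan and matrix proteins, stood at 958 ± 141 and 1108 ± 64.9 CPM. ITGB1, the integrin beta chain shared by fibronectin and collagen receptors, was at 85.3 ± 22.4 and 112 ± 71.0 CPM.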

How the data were processed

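The 6 libraries of MCF10CA1a cells were grouped by labelled stiffness. The authors deposited raw counts per gene symbol and TMM-scaled log2 values, per the file headers. HISAT2 2.1.2, HTSeq 0.11.4 and the GRCh38 build are named in the submitters' processing notes. The sources used here give neither strandedness nor annotation release, so reads of a gene and of genes overlapping it cannot be told apart. In GENCODE 29 over 5% of exon bases lie in another gene for COL18A1, THBS1, SPARC, HSPG2, NID2, LOXL1, LOXL2, LOXL3 and PLOD3. The deposited log2 values, filled in for 23 members, lay within 0.107 of log2 CPM computed here and were not tested. Value columns of no sample numbered 0.

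After filterByExpr (minimum count 10, minimum total 15), 11517 genes were tested in edgeR 4.0.16 (R 4.3.3) by quasi-likelihood with TMM scaling. P-values were adjusted over all of them by Benjamini-Hochberg, with calls at an FDR of 0.05. CPM scale counts by the sum over tested genes times the TMM factor. Intervals are the estimate ± 1.96 SE. In the blocked edgeR fit over all 6 libraries the variance was shared across genes of like level. Its SEs, intervals and p-values therefore do not follow the spread of a gene's own pairs, and SEs were near 0.23 for PLOD1, PLOD3, THBS1 and SDC1. Coordinates, length and GC content come from GENCODE 29 (GC for 98.3% of tested genes). DESeq2 1.42.0 and limma 3.58.1 were alternatives. The steps were tested on simulated data with an equal spread for all genes, effects shared by same-numbered libraries and no GC shift. That test assumes the pairing and the shared variance, so it cannot show that they hold in these libraries.

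Stiffness alone was the main design, with the replicate number as a block beside it. Deviations from the group means correlated within same-numbered pairs at 0.409, 0.184 and 0.516, each above 0.1, so the numbers were taken to pair the samples by this check. The library of 500 Pa replicate 2 correlated slightly more with 8000 Pa replicate 1, at 0.199. That unmatched pair also passed 0.1, so the check cannot show which stiff library belongs with 500 Pa replicate 2. The part of the libraries' shift with GC content in these correlations was not tested. Members named as results passed in either fit, had no overlap between groups, averaged at least 20 CPM or were among the 8 smallest unblocked p-values, and other members are given beside them with their values. From the helper and receptor lists the 2 of highest level were named. Members and lists were chosen with earlier results of these data known.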

Additional observations from a re-analysis of the deposited data

How the results depend on the processing

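With the replicate block 61 genes and 1 member passed, against 0 and 0 without it, and the pairing changed no other call on members, helpers or receptors over all 6 libraries. DESeq2 with the block gave 42 genes and 1 member, and the GC offset with the block 84 and 1. Without pairing, DESeq2 gave 7 genes, no filter 8, and single libraries left out 0 to 1. With the block, 38 genes passed without replicate 1, 81 without replicate 2 and 12 without replicate 3, with 1, 3 and 0 members, the 3 being FN1, TNC and COL4A4, of which COL4A4 cleared the count filter only through its stiff libraries and is no support. Helpers and receptors had 0 calls in every setting run. Library size alone moved the median log2 fold change of all genes from 0.01 to 0.17. Of 22 named genes 11, FN1 among them, kept their direction in every setting where they were tested, and the others crossed 0. FBN1 kept it in 15 and COL1A1 in 18 of the 19 settings beside the main one, and they were not tested in the rest. AGRN was at 0.12 with the GC offset, with or without the block, and SDC4 at -2e-05 with the GC offset. PLOD1 was at -0.05 with the block or limma-voom, -0.01 with DESeq2 or its size factors and -0.06 with DESeq2 and the block. SDC1 was at -0.007 with the block, -0.01 with DESeq2 and the block and -0.009 with limma-voom. PPIB was at -0.002 with the block, -0.003 with DESeq2, its size factors or limma-voom, and -0.009 with DESeq2 and the block. With single libraries left out the unblocked log2 fold change ran from -0.47 to 0.22 for AGRN, -0.06 to 0.97 for COL12A1, -0.16 to 0.37 for FBLN1, -0.24 to 0.75 for ITGB1, -0.35 to 0.08 for LOXL2, -0.13 to 0.25 for P4HB, -0.30 to 0.20 for PLOD1, -0.10 to 0.08 for PPIB, -0.13 to 0.32 for SDC1 and -0.05 to 1.27 for TGM2. With the block and a pair left out it ran from -0.09 to 0.42 for FBLN1, -0.14 to 0.54 for ITGB1, -0.44 to 0.13 for LOXL2, -0.02 to 0.23 for P4HB (-0.01 without replicate 3), -0.17 to 0.15 for PLOD1, -0.05 to 0.10 for PPIB and -0.12 to 0.25 for SDC1 (-0.08 without replicate 3). The cause was not tested. Counts were low for many members, since 17 of the 32 tested, 11 of them collagens, were below 20 CPM in every library.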
